A study of Mus musculus with 20 samples.

Results

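The glutathione peroxidases and the thioredoxin system of the mouse utricle were examined as 10 genes: the peroxidases *Gpx1*, *Gpx3*, *Gpx4*, *Gpx7* and *Gpx8*, glutathione reductase *Gsr*, the thioredoxins *Txn1* and *Txn2*, and the thioredoxin reductases *Txnrd1* and *Txnrd2*. They were chosen by gene name, and all 10 were found among the 25655 genes of the count tables. The utricle is a balance organ of the inner ear whose hair cells lie under a layer of calcium carbonate crystals, the otoconia. The RNA came from female C57BL/6J mice whose operation took place at the age of 8 weeks, and each of 4 groups had 5 libraries. The sham + v group was sham-operated and carried a vehicle pellet, and the OVX + v group was ovariectomized (OVX) and carried a vehicle pellet. The OVX + E2 group was ovariectomized and carried a pellet of 50 µg estradiol (E2) for 60 days. The OVX + RAL group was ovariectomized and carried a pellet of 2.4 mg raloxifene (RAL), a selective estrogen receptor modulator, for 60 days. All mice were wild type, and the study sampled them 4 weeks after the operation. The libraries are named here by the replicate numbers 1 to 5 (sham + v), 6 to 10 (OVX + v), 11 to 15 (OVX + E2) and 16 to 20 (OVX + RAL), and the labels do not say whether each came from a separate animal, so the p-values measure the spread between these samples, which may be technical.

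Both systems remove peroxides with electrons from NADPH. Glutathione peroxidases reduce hydrogen peroxide or lipid peroxides at the expense of glutathione, and glutathione reductase restores the oxidized glutathione. Thioredoxins reduce disulfides in peroxiredoxins and many other proteins, and thioredoxin reductases restore the thioredoxins. Several of these enzymes are selenoproteins, in which a UGA codon is read as selenocysteine instead of as a stop. Sensory cells of the inner ear are rich in mitochondria and are sensitive to oxidative stress. The study asked whether hormonal treatment lessens the changes of the otoconia that follow loss of estrogen, and hypothesized that this goes through less oxidative stress. Its RNA sequencing compared OVX + v with each of the other groups.

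The active-site codons show which of the genes depend on selenium. The stretches below are 30 nucleotides of coding sequence, written 5′ to 3′ on the coding strand, from GENCODE vM39 transcripts on GRCm39, with the active-site codon in capitals. In *Gpx1*, *Gpx3* and *Gpx4* that codon is TGA (UGA in the mRNA), and each has a single in-frame TGA before the stop codon. In *Gpx7* and *Gpx8* the aligned codon is a cysteine codon, and neither has an in-frame TGA.
Gpx1: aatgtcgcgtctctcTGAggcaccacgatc
Gpx3: aacgtagccagctacTGAggtctgacagac
Gpx4: aacgtggcctcgcaaTGAggcaaaactgac
Gpx7: aacgtagctagcgaaTGTggcttcacagac
Gpx8: aacgtggctagtgacTGCcgcttcacagac
The codon is number 47 of *Gpx1* (chr9:108216650-108216652, plus strand, exon 1 of 2), 73 of *Gpx3* (chr11:54798082-54798084, plus strand, exon 2 of 5) and 73 of *Gpx4* (chr10:79890571-79890573, plus strand, exon 3 of 7). It is codon 56 of *Gpx7* (chr4:108260627-108260629, minus strand, exon 2 of 3) and codon 79 of *Gpx8* (chr13:113182195-113182197, minus strand, exon 2 of 3). Of the 30 bases, *Gpx4* shared 19 with *Gpx1*, *Gpx8* shared 16, and *Gpx3* and *Gpx7* shared 15 each.

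The thioredoxin reductases carry their TGA as the last codon but 1, so that the stretches shown end with the true stop codon, taa. The thioredoxins carry 2 cysteine codons separated by 2 other codons, shown in capitals.
Txnrd1: gacatcctccagtctggctgcTGAggttaa
Txnrd2: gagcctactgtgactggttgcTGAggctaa
Txn1: gctacgtggTGTggacctTGCaaaatgatc
Txn2: gcacagtggTGTggccccTGCaagatccta
The TGA is codon 498 of the 499 codons of *Txnrd1* (chr10:82731871-82731873, plus strand, exon 14 of 14) and codon 526 of 527 of *Txnrd2* (chr16:18296522-18296524, plus strand, exon 17 of 18). The cysteine pairs begin at codon 32 of *Txn1* (chr4:57951830-57951832, minus strand, exon 2 of 5) and codon 90 of *Txn2* (chr15:77808860-77808862, minus strand, exon 2 of 3). The stretch of *Txn2* is joined across an intron of 3025 bases. The reductases shared 18 and the thioredoxins 21 of 30 bases. *Gsr*, a flavoenzyme, has no in-frame TGA (13 exons).

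The authors' deposited tables hold raw read counts per gene, made with a library kit for 3′ ends of transcripts. The total count was between 1123053 and 2081747 per library, and it was lowest in the OVX + E2 group (1123053 to 1507667). Between 7427 and 9680 genes were detected in OVX + E2 libraries, and between 8651 and 10694 in those of the other groups. Expression is given as CPM, the counts of a gene scaled to a common library total (counts per 1e6 counts), in which 3 counts, the most that a count of 0 allows, are worth 1.44 to 2.67 CPM (counting error only). CPM was not divided by gene length, since the kit reads mainly the ends of transcripts, and an order of genes by CPM is a description of these libraries. The label of the tissue was checked with marker genes: all 7 hair cell genes and all 6 genes of supporting cells and otoconia had a count in at least 1 library of each group. *Oc90* had a count in only 2 of 5 libraries of every group, and *Slc17a8* in 2 of 5 in OVX + E2. Summed Schwann cell markers had medians of 2281 CPM in sham + v, 2888 in OVX + v, 4110 in OVX + E2 and 2267 in OVX + RAL. Melanocyte markers had 613, 950, 525 and 1328 CPM in that order. The part of these cells in the values below was not tested. Markers of blood, with a summed level of 363 to 3837 CPM, of mucosal epithelium, with 0.80 to 1812 CPM, of skeletal muscle, with 0 to 314 CPM, and of bone, with 0 to 239 CPM, varied between libraries within groups, and their part in the values below was not tested. In tissue RNA, fewer cells of a type and less RNA per cell cannot be told apart.

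**Figure D1:**
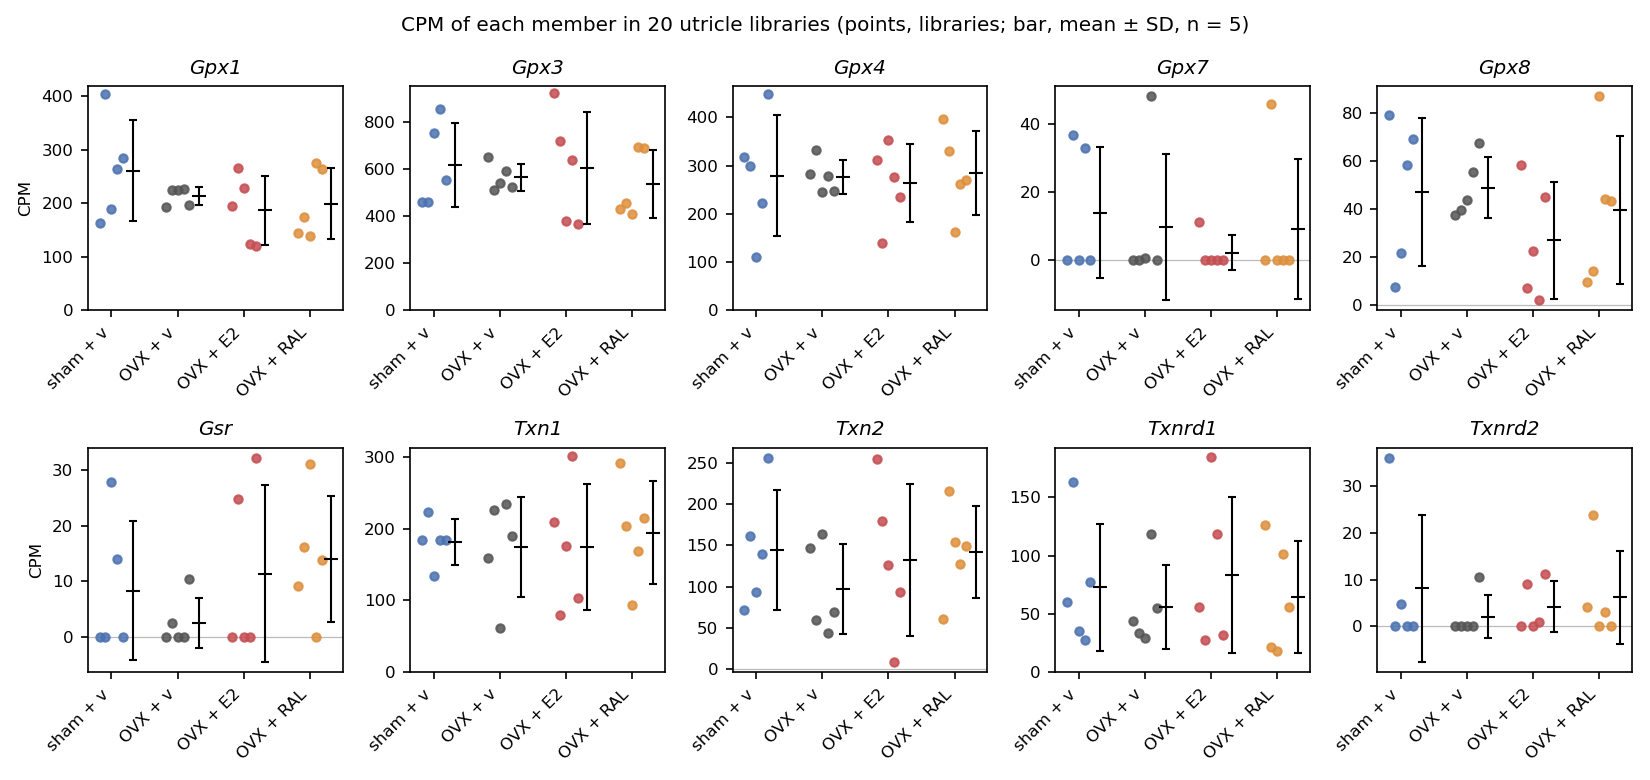
CPM of each of the 10 genes (y axis of each panel, CPM) in the 20 libraries, arranged by group on the x axis. Points are libraries and bars the mean and SD of 5 libraries, and an SD larger than its mean runs below 0. The points of every group overlap those of OVX + v in all panels, and the panels of Gpx7, Gsr and Txnrd2 hold many libraries at 0.

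The peroxidases with selenocysteine had the highest CPM of the 10 genes. *Gpx3*, which encodes the secreted peroxidase of plasma and extracellular fluid, had a mean of 580 CPM over the 20 libraries and ranked 188 of the 15803 genes with a count. *Gpx4*, the enzyme that reduces lipid peroxides within membranes, had 276 CPM (rank 488). *Gpx1*, the ubiquitous cytosolic peroxidase, had 215 CPM (rank 682).

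*Gpx3* (chr11:54793279-54801203) passed the test in no comparison. It had 461, 461, 750.3, 854 and 552 CPM in the sham + v libraries and 652, 509, 541, 592 and 525 CPM in the OVX + v libraries. The OVX + E2 libraries had 923, 718, 378, 638 and 365 CPM and the OVX + RAL libraries 431, 455, 408, 694 and 688 CPM. All 5 OVX + v libraries lay inside the range of each other group, which held libraries both above and below them. The means were 616 ± 178 CPM (SD, n = 5) in sham + v, 564 ± 58.3 CPM in OVX + v, 604 ± 236 CPM in OVX + E2 and 535 ± 143 CPM in OVX + RAL. Against OVX + v, the fold was 1.09 (95% confidence interval 0.773 to 1.54) in sham + v, with a log2 fold change of 0.13 ± 0.254 (SE). It was 0.10 ± 0.274 on the log2 scale in OVX + E2 and -0.08 ± 0.258 in OVX + RAL. These are estimates of the quasi-likelihood test of edgeR, which shares information on the spread between genes of similar level, with p-values adjusted by the Benjamini-Hochberg method over all tested genes and a threshold of 0.05. The adjusted p of *Gpx3* was 0.9998 for sham + v, 0.9997 for OVX + E2 and 0.9999 for OVX + RAL by edgeR, and these 3 comparisons share the OVX + v libraries. The GENCODE vM39 transcript of *Gpx3* runs 1221 nucleotides past the end of the gene in the deposited tables, and reads there were not analysed here.

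*Gpx4* (chr10:79883000-79892273) had nearly equal group means. The values were 317, 299, 110.2, 221 and 448 CPM in sham + v and 283, 332, 244, 278 and 247 CPM in OVX + v. They were 312, 140.5, 352, 276 and 236 CPM in OVX + E2 and 396, 331, 163, 262 and 269 CPM in OVX + RAL. The lowest library was replicate 3 of sham + v and the highest replicate 5 of the same group. The group means lay between 263 ± 80.9 CPM (OVX + E2) and 284 ± 86.4 CPM (OVX + RAL; SD, n = 5 each). The log2 fold change against OVX + v was 0.01 ± 0.330 (SE) in sham + v, -0.07 ± 0.385 in OVX + E2 and 0.04 ± 0.312 in OVX + RAL, and its sign turned under some alternatives of the processing in each of the 3 comparisons. The 95% interval of the fold was 0.644 to 1.58 in sham + v, 0.564 to 1.60 in OVX + E2 and 0.671 to 1.57 in OVX + RAL. The level of *Gpx4* may be uncertain, because part of its sequence also occurs in transcripts of other annotated genes. This holds for 81.4% of the 338 windows of 63 nucleotides in the last 400 nucleotides of its transcript, up to the end of the gene in the deposited tables. *Gm63662* shares 275 windows, *Gpx4-ps2* 54 and *Gpx4-ps1* 15, and these genes are not rows of the deposited tables. Whether *Gm63662* is a copy elsewhere in the genome or overlaps *Gpx4* itself was not checked. No such window of the other 9 genes, taken up to the deposited end in the same way, occurs in another gene.

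*Gpx1* (chr9:108216102-108217542) was the tightest gene of the set in the OVX + v group, with 192, 224, 225, 226 and 197 CPM. The sham + v libraries had 163, 405, 190.2, 263 and 285 CPM, 3 of them above and 2 below every OVX + v library. The OVX + E2 libraries had 194, 265, 229, 124 and 121 CPM, and the OVX + RAL libraries 144, 175, 139, 276 and 263 CPM. Both groups therefore straddled OVX + v as well. The means were 261 ± 94.7 CPM in sham + v, 213 ± 16.7 CPM in OVX + v, 187 ± 63.9 CPM in OVX + E2 and 199 ± 65.7 CPM in OVX + RAL. The fold against OVX + v was 1.23 in sham + v (95% interval 0.756 to 1.99), 0.876 in OVX + E2 (0.475 to 1.62) and 0.936 in OVX + RAL (0.580 to 1.51). The interval of OVX + RAL thus held changes from a fall to 0.580 of the OVX + v level to a 1.51-fold rise.

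The peroxidases with cysteine are residents of the endoplasmic reticulum, where they use hydrogen peroxide to oxidize protein disulfide isomerases. *Gpx8* (chr13:113179287-113182944) had a mean of 40.5 CPM and was found in all 20 libraries. Its values were 78.9, 7.35, 21.3, 58.1 and 69.0 CPM in sham + v and 37.4, 39.5, 43.6, 55.5 and 67.6 CPM in OVX + v. They were 58.4, 6.80, 22.4, 1.78 and 44.9 CPM in OVX + E2 and 9.26, 14.004, 86.9, 44.1 and 43.2 CPM in OVX + RAL. Of the OVX + E2 libraries, 3 lay below every OVX + v library and the other 2 among them. The largest of the 3 differences of *Gpx8* was that of OVX + E2, at -0.86 ± 1.30 (SE) on the log2 scale (fold 95% interval up to 3.25), and edgeR gave it an unadjusted p of 0.512 and an adjusted p of 0.9997. It was -1.52 and -1.66 with limma (pseudocounts 1 and 0.1), -1.35 without replicate 11 and -0.41 without replicates 13 and 14. *Gpx8* lies inside *Cdc20b*, which is on the opposite strand and had 0 counts, and its vM39 transcript runs 458 nucleotides past the deposited end.

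*Gpx7* (chr4:108257587-108264158) had no count in 14 of the 20 libraries and at least 17 counts in 5. It had 36.7 and 33.0 CPM in replicates 2 and 4 of sham + v (70 and 59 counts) and 0 counts in the other 3. In OVX + v it had 97 counts (48.0 CPM) in replicate 9, 1 count in replicate 8 and none elsewhere. OVX + E2 had 17 counts in replicate 11 alone (11.3 CPM) and OVX + RAL 85 counts in replicate 17 alone (45.8 CPM). The level was thus set by which libraries held the gene, and every group had both kinds. The 95% interval of the log2 fold change ran from -3.65 to 4.68 in sham + v, from -7.60 to 3.47 in OVX + E2 and from -4.39 to 4.22 in OVX + RAL. Without replicate 9 of OVX + v the log2 fold change of OVX + RAL changed from -0.09 to 5.41 and that of OVX + E2 from -2.06 to 3.35, neither past the threshold. The OVX + v libraries then held only 1 count together, so these fitted values are no measure of size.

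The reductases and thioredoxins were led by the cytosolic thioredoxin. *Txn1* (chr4:57943373-57956411) had a mean of 181 CPM (rank 843), and the mitochondrial thioredoxin *Txn2* (chr15:77799247-77813206) 129 CPM (rank 1269). The cytosolic reductase *Txnrd1* (chr10:82669785-82733546) had 69.1 CPM (rank 2631). *Gsr* (chr8:34142551-34188191) and the mitochondrial reductase *Txnrd2* (chr16:18245134-18297823) were far lower, at 9.12 and 5.17 CPM.

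*Txn1* had 184, 223, 133, 183 and 184 CPM in sham + v and 159, 226, 61.8, 234 and 190.2 CPM in OVX + v. It had 209.6, 80.1, 176, 301 and 104 CPM in OVX + E2 and 291, 204, 93.4, 169 and 215 CPM in OVX + RAL. All sham + v libraries lay within the range of OVX + v, and 1 library each of OVX + E2 and OVX + RAL lay above it. The means were 182 ± 31.9 CPM in sham + v, 174 ± 69.7 CPM in OVX + v, 174 ± 88.2 CPM in OVX + E2 and 194 ± 71.9 CPM in OVX + RAL (SD, n = 5). The vM39 gene runs 9165 bases past the deposited end of *Txn1*, and the transcript used here, which is not the canonical one, was the one that ends there. The fold of OVX + RAL over OVX + v was 1.12 (95% interval 0.673 to 1.85).

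*Txn2* had the smallest unadjusted p of the 10 genes, 0.218 in OVX + RAL by edgeR, and did not pass the test. Its values were 71.1, 162, 93.0, 139 and 256 CPM in sham + v and 147, 59.6, 163, 43.6 and 69.7 CPM in OVX + v. They were 255, 179, 126, 8.90 and 94.0 CPM in OVX + E2 and 61.2, 216, 154, 127 and 149 CPM in OVX + RAL. No sham + v or OVX + RAL library was below every OVX + v library, and 1 of each was above. In OVX + E2, 2 libraries were above and 1, replicate 14 with 10 counts, below. The means were 144 ± 72.1 CPM in sham + v, 96.6 ± 54.5 CPM in OVX + v, 132 ± 92.1 CPM in OVX + E2 and 141 ± 55.7 CPM in OVX + RAL. The log2 fold change was 0.58 ± 0.489 (SE) in sham + v, 0.46 ± 0.611 in OVX + E2 and 0.55 ± 0.446 in OVX + RAL. Without replicate 5 of sham + v the first was 0.27, and without replicate 11 of OVX + E2 the second was 0.078. The fold intervals were 0.767 to 2.90 in sham + v and 0.797 to 2.69 in OVX + RAL, so that a rise of up to 2.69-fold in OVX + RAL could not be told from no change.

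*Txnrd1* varied 10.1-fold between its lowest and highest library. It had 59.9, 163, 35.0, 27.4 and 77.6 CPM in sham + v and 43.6, 33.9, 28.9, 118 and 55.0 CPM in OVX + v. It had 55.7, 27.2, 184, 118 and 31.6 CPM in OVX + E2 and 126, 21.5, 18.2, 101 and 55.7 CPM in OVX + RAL. Each group held 1 or 2 libraries with at least 100 CPM and 2 with at most 35.0 CPM. The log2 fold change against OVX + v was 0.37 ± 0.734 (SE) in sham + v, 0.57 ± 0.860 in OVX + E2 and 0.21 ± 0.669 in OVX + RAL. Without replicate 2 of sham + v the first was -0.16, and without replicates 13 and 14 of OVX + E2, the libraries with the fewest genes of that group, the second was -0.55. *Txnrd1* overlaps *Eid3* on its own strand, but *Eid3* had 38 counts over the 20 libraries and *Txnrd1* 2305.

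*Gsr* was found in 10 libraries and had 0 counts in 10. In sham + v, replicates 3 and 4 had 47 and 25 counts (27.9 and 13.98 CPM). In OVX + v, replicates 7 and 10 had 4 and 15 counts (2.51 and 10.5 CPM). In OVX + E2, replicates 12 and 15 had 33 and 46 counts (24.9 and 32.3 CPM). OVX + RAL was the group with the most libraries holding *Gsr*, with 18, 30, 53 and 29 counts in replicates 16, 17, 18 and 20 (9.26, 16.2, 31.1 and 13.9 CPM). The mean was 14.1 ± 11.4 CPM in OVX + RAL and 2.59 ± 4.53 CPM in OVX + v. The log2 fold change of 2.42 had an SE of 2.38, an unadjusted p of 0.311 and an adjusted p of 0.9999 by edgeR. Without replicate 10 of OVX + v it was 4.36, with an adjusted p of 0.796, and without replicate 18 of OVX + RAL it was 1.90.

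*Txnrd2* was found in 9 libraries, the largest being replicate 1 of sham + v with 74 counts (36.0 CPM). The other sham + v value above 0 was 8 counts in replicate 3. OVX + v had 15 counts in replicate 10 alone (10.5 CPM). OVX + E2 had 12, 1 and 16 counts in replicates 12, 14 and 15, and OVX + RAL had 8, 44 and 6 in replicates 16, 17 and 19. The sham + v difference rested on 2 libraries: without replicate 1 of sham + v the log2 fold change went from 1.94 to -0.78, and without replicate 10 of OVX + v to 6.86, a fitted value against libraries that all had no count and so no measure of size.

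None of the 10 genes passed the test in any comparison. In sham + v against OVX + v, 0 of the 10 genes had an adjusted p under 0.05 by edgeR, where 2 of 13825 tested genes did (0.0145%), and 0 had an unadjusted p under 0.05, where 12.5% of all genes did. In OVX + E2 against OVX + v the counts were 0 and 0, beside 0.0584% and 13.9% of 13695 genes. In OVX + RAL against OVX + v they were 0 and 0, beside 0.0286% and 12.1% of 14002 genes. In the test of any difference among the 4 groups over all 20 libraries they were 0 and 0, beside 0.141% and 16.3% of 14870 genes. DESeq2 also called 0 of the 10 genes in each, giving no adjusted p for *Gsr* and *Txnrd2* in sham + v, for *Gpx7*, *Gsr* and *Txnrd2* in OVX + E2, and for *Gpx7* in OVX + RAL. Groups that did not overlap were found for 0 of the 10 genes, against 0.499% of all genes in sham + v, 0.832% in OVX + E2 and 0.578% in OVX + RAL.

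**Figure D2:**
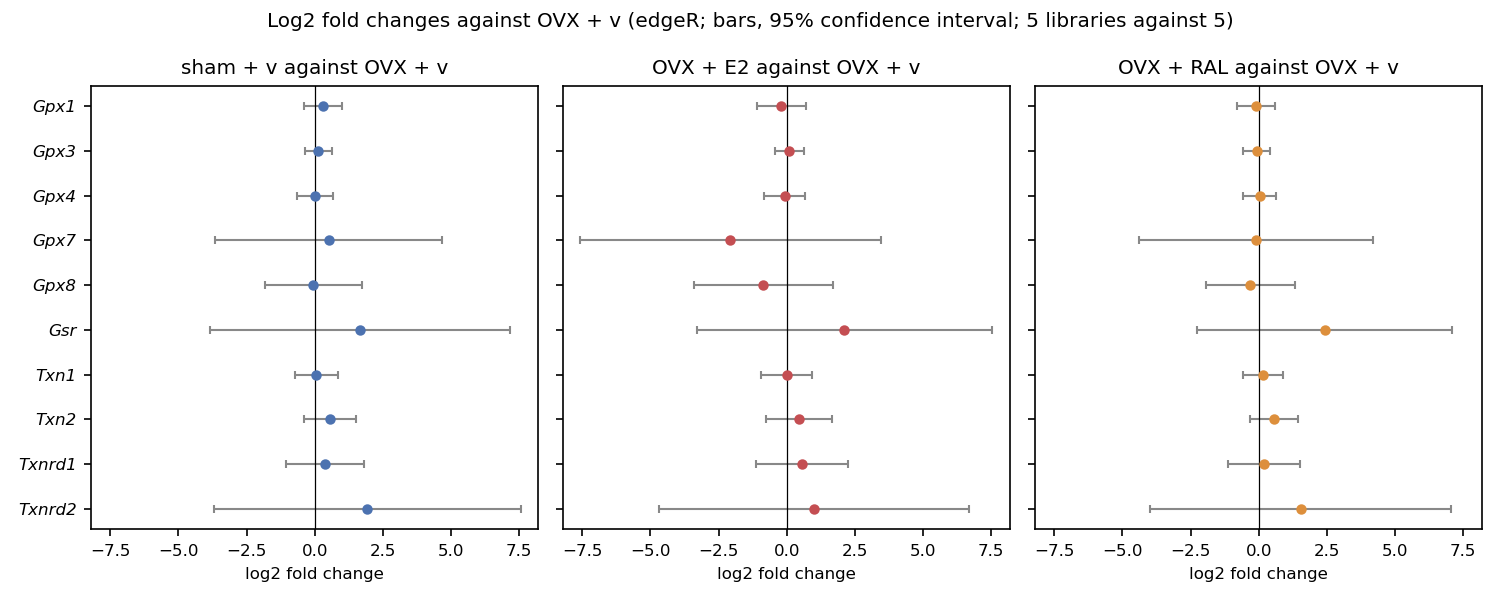
Log2 fold change against OVX + v (x axis) of each of the 10 genes (y axis) in the 3 comparisons, as points with 95% confidence intervals of the edgeR fit. Every interval includes 0, and those of Gpx7, Gsr and Txnrd2 are several times wider than those of Gpx1, Gpx3, Gpx4 and Txn1.

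The log2 fold changes of the 10 genes all lay within intervals that included 0. In sham + v, 9 of the 10 log2 fold changes were above 0 (8 of 10 with TMM factors), with a median of 0.33, while 6768 of 13825 genes were above 0, with a median of -0.02. In OVX + E2, 5 were above and 5 below 0 (4 and 6 with TMM factors), with a median of 0.05 beside -0.06 for all genes. In OVX + RAL, 6 were above 0, with a median of 0.10 beside -0.03. In that comparison 1 of 5 peroxidases (*Gpx4*, which fell below 0 with limma) and 5 of 5 reductases and thioredoxins were above 0, and none of them passed the test. The order of the 4 group means differed from gene to gene. Sham + v had the highest mean for *Gpx1*, *Gpx3*, *Gpx7*, *Txn2* and *Txnrd2*, OVX + RAL for *Gpx4*, *Gsr* and *Txn1*, OVX + E2 for *Txnrd1* and OVX + v for *Gpx8*. In 0 of the 30 pairs of neighbours in these orders was the difference of the means greater than the larger of both SDs. Neighbours are the closest groups of an order, and groups further apart were not counted in this way. For *Gsr* the ends of the order, 14.1 ± 11.4 CPM in OVX + RAL and 2.59 ± 4.53 CPM in OVX + v, were further apart than either SD.

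The spread between libraries was several times that of counting. The coefficient of variation (SD over mean) over the 20 libraries was 27.1% for *Gpx3*, 29.3% for *Gpx4*, 31.4% for *Gpx1* and 35.1% for *Txn1*. It was 52.3% for *Txn2*, 62.6% for *Gpx8* and 71.5% for *Txnrd1*, and 128% for *Gsr*, 183% for *Txnrd2* and 193% for *Gpx7*. Counting error alone would give from 3.21% (*Gpx3*) to 33.0% (*Txnrd2*), so the ratio was between 4.96 and 8.42. The ratio had a median of 7.39 in the 1721 genes with at least 100 CPM, whose median coefficient was 41.3%. Within groups the median coefficient of those genes was 31.8% in OVX + v and 44.3% in OVX + E2.

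**Figure D3:**
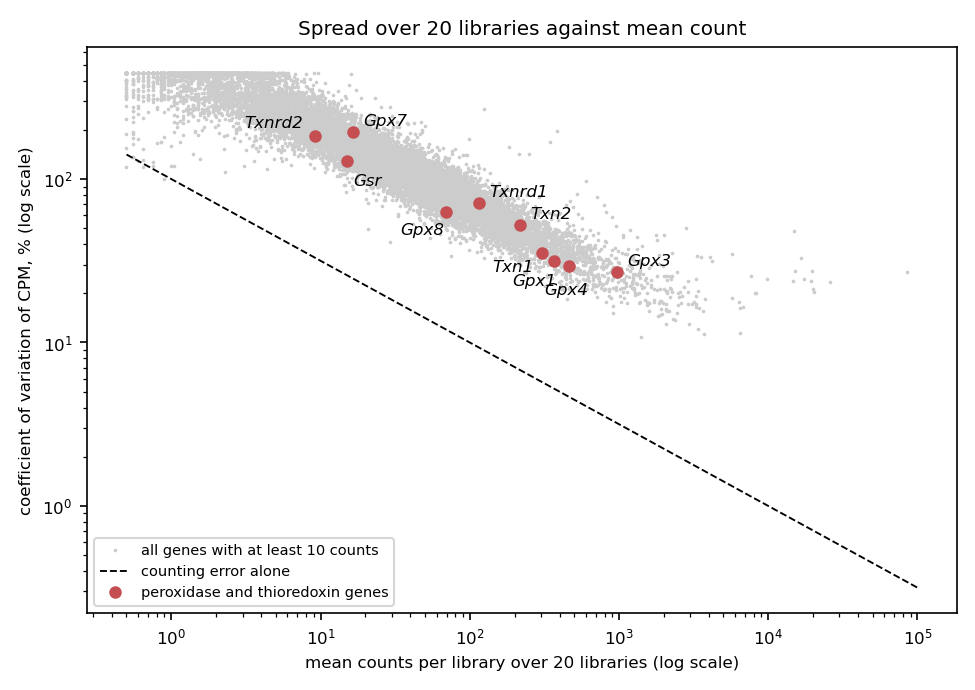
Coefficient of variation of CPM over the 20 libraries (y axis, %, log scale) against the mean count per library (x axis, log scale) for all genes with at least 10 counts (grey) and the 10 genes (red). The dashed line is counting error alone, and all 10 genes lie above it and within the grey cloud, from 27.1% for Gpx3 to 193% for Gpx7.

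The 3 sparse genes were spread unevenly over the libraries. *Gpx7*, *Gsr* and *Txnrd2* had 0 counts in some libraries and up to 97, 53 and 74 counts in others. Of the 20 libraries, 3 held none of these 3 genes, 10 held 1, 6 held 2 and 1 held all 3. This was common among all genes, since 10516 of the 15803 genes with a count (66.5%) had 0 in 1 library and at least 30 in another. The libraries were prepared from 1 ng of RNA each, and no molecular identifiers are named in the sources used here, so that several counts could stem from the same molecule, which was not tested.

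Across the 20 libraries some of the 10 genes varied together. The Spearman correlation of log2(CPM + 1) was 0.588 between *Gpx4* and *Txn1*, 0.577 between *Txn1* and *Txnrd1*, and 0.555 between *Gpx4* and *Txnrd1*. It was -0.680 between *Gsr* and *Txnrd1* and -0.562 between *Gsr* and *Gpx4*. *Gsr* was at 0 in 10 of the libraries, which share 1 rank. These are descriptions over 20 libraries of 4 groups, in which the genes share the library and its depth. The values are the extremes of many pairs, and whether they exceed chance was not tested. Among 2233 genes with at least 10 counts in every library, the closest to *Gpx1* was *Atp5b* (0.75), to *Gpx3* *Lin7c* (0.74), to *Gpx4* *Ppp1r1b* (0.71), to *Txn2* *Car12* (0.77) and to *Txnrd1* *Eml2* (0.67). Each is the highest of 2233 correlations and was not compared with what chance would give.

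The genes that feed the 2 systems gave no call either. Of all tested genes, edgeR called 0.0145% in sham + v, 0.0584% in OVX + E2, 0.0286% in OVX + RAL and 0.141% among the 4 groups. A count of 0 in lists this short is therefore near the share of all genes. An unadjusted p under 0.05 by edgeR, as given for single genes below, was found for 13.9% of all genes in OVX + E2 and 16.3% among the 4 groups. Of the other family genes (*Gpx2*, *Gpx5*, *Gpx6* and *Txnrd3*), 3 of 4 had enough counts, and 0 passed the test in any comparison by edgeR or DESeq2. *Gpx2*, the peroxidase of epithelia, had 142 ± 70.6 CPM in sham + v, 126 ± 73.4 CPM in OVX + v, 76.5 ± 45.7 CPM in OVX + E2 and 92.4 ± 50.0 CPM in OVX + RAL. *Txnrd3*, a reductase also known from testis, had 0 to 63.7 CPM and was at 0 in 11 libraries.

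Of the 8 genes of glutathione synthesis and glutaredoxins (*Gclc*, *Gclm*, *Gss*, *Slc7a11*, *Glrx*, *Glrx2*, *Glrx3* and *Glrx5*), 0 passed the test, and the median log2 fold change was -0.44 in sham + v, -0.67 in OVX + E2 and 0.00046 in OVX + RAL. *Slc7a11*, the cystine transporter that supplies glutathione synthesis, had 156 ± 44.8 CPM in sham + v, 179 ± 107 CPM in OVX + v, 91.5 ± 42.4 CPM in OVX + E2 and 123 ± 25.6 CPM in OVX + RAL. *Glrx5*, a mitochondrial glutaredoxin of iron-sulfur cluster assembly, had 66.0 ± 51.5, 100.2 ± 41.7, 147 ± 56.9 and 107 ± 21.5 CPM in the same order. *Glrx*, named here after its values were seen, had 0 counts in all 5 OVX + E2 libraries and 0 to 20.1 CPM in OVX + v, with an unadjusted p of 0.0322 and an adjusted p of 0.351 by edgeR.

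Of 14 partners of thioredoxin (*Txnip*, *Txnl1*, *Nxn*, *Srxn1*, *Prdx1* to *Prdx6*, *Msra* and *Msrb1* to *Msrb3*), 0 passed the test, with medians of -0.01 in sham + v, -0.08 in OVX + E2 and 0.09 in OVX + RAL. *Txnip*, which encodes an arrestin-like protein that binds and inhibits thioredoxin, was the most abundant gene of the lists at 546 CPM. It had 482 ± 169 CPM in sham + v, 543 ± 121 CPM in OVX + v, 749 ± 194 CPM in OVX + E2 and 411 ± 73.3 CPM in OVX + RAL. The unadjusted p for any difference among the 4 groups was 0.0172 and the adjusted p 0.191 by edgeR, and the log2 fold change of OVX + E2 was 0.47 ± 0.262 (SE). *Msra*, a methionine sulfoxide reductase named here after its values were seen, had 0 counts in all 5 OVX + E2 libraries and was found in 1 of the 5 OVX + v libraries (30 counts), with an unadjusted p of 0.0442 and an adjusted p of 0.351 by edgeR. *Prdx5*, a peroxiredoxin of mitochondria, peroxisomes and cytosol, had 349 to 425 CPM as group means with SDs of 49.8 to 181 CPM.

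Of 8 genes of selenoprotein synthesis and selenium supply (*Secisbp2*, *Eefsec*, *Sephs2*, *Pstk*, *Sepsecs*, *Selenop*, *Lrp8* and *Scly*), 0 passed the test, with medians of 0.14 in sham + v, -0.37 in OVX + E2 and 0.21 in OVX + RAL. *Selenop*, the plasma carrier of selenium, was at 0 in 10 libraries. It had 0 to 98.6 CPM in OVX + v and 2 counts in 1 of the 5 OVX + E2 libraries. The adjusted p of that difference was 0.351 by edgeR (unadjusted 0.00402) and 0.0872 by DESeq2. *Scly*, which recovers selenium from selenocysteine, had 0 to 103 CPM. With the genes that exceeded 3 counts in no OVX + E2 library set to the level of 3 counts, and *Sephs2* left out because its OVX + v mean was also under that level, the median of this list in OVX + E2 was 0.00061.

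Of 5 tested genes that supply NADPH (*G6pdx*, *Pgd*, *Idh1*, *Idh2* and *Me1*), 0 passed the test, with medians of 0.70, 0.50 and 0.29. *Me1*, cytosolic malic enzyme, had 175 ± 77.2 CPM in sham + v, 108 ± 50.8 CPM in OVX + v, 84.8 ± 33.5 CPM in OVX + E2 and 142 ± 61.8 CPM in OVX + RAL. *Idh1*, cytosolic isocitrate dehydrogenase, had 63.4 ± 23.5, 36.1 ± 13.4, 70.1 ± 62.4 and 44.3 ± 24.4 CPM. Their adjusted p by edgeR was 0.759 and 0.9998 in sham + v.

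**Figure D4:**
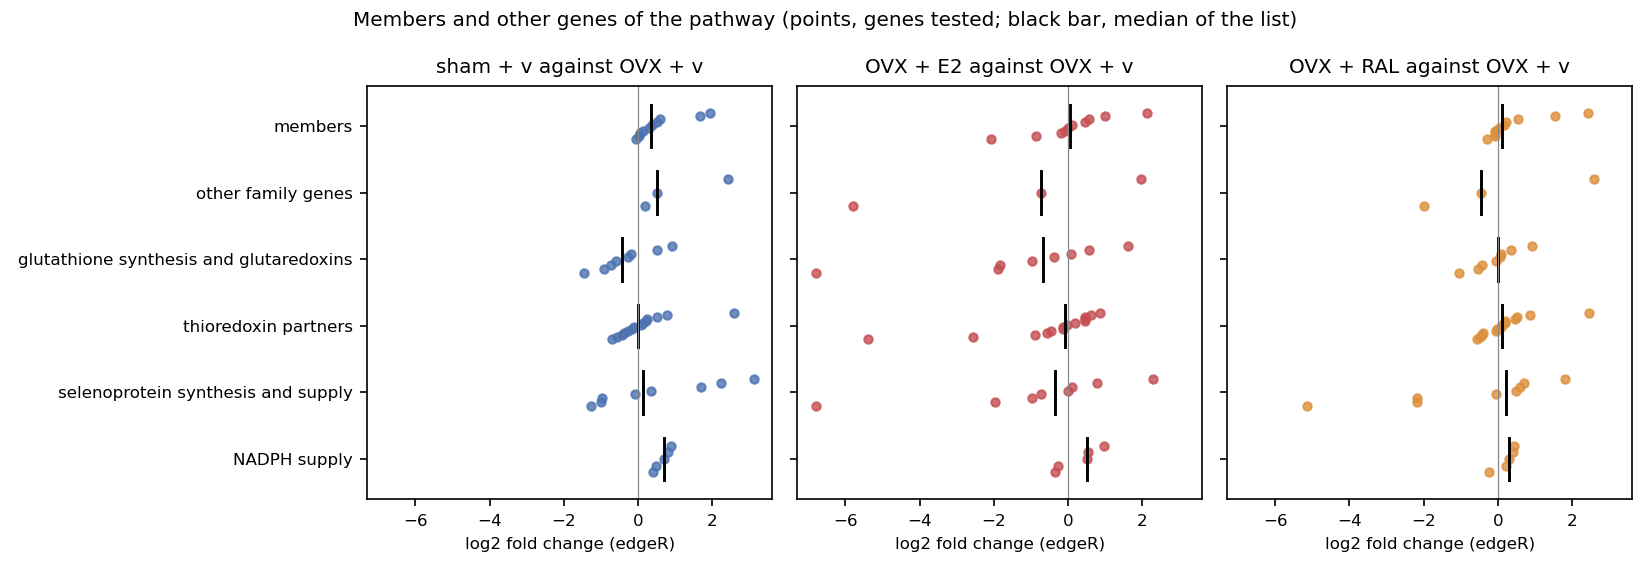
Log2 fold change against OVX + v (x axis, the same in each panel) of the 10 genes and of the other genes of 5 lists of the pathway (rows), 1 point per gene, with a line at the median of each list. No point passed the test, and the outlying points of OVX + E2 at the far left, among them Selenop and Glrx, come from genes with 0 to 2 counts in that group, where the fitted value is no measure of size.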

How the data were processed

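As the paper describes, the authors trimmed the reads of a 3′ mRNA kit, removed the first 12 nucleotides and mapped them to GRCm39.105 with default settings in CLC Genomics Workbench; its version and what those settings do with reads of several matches are not given in the sources used here. The deposited total counts are raw read counts per gene, without normalization. The other deposited columns (CPM, TPM, RPKM and the authors' own fold changes and p-values) were not used, and 0 columns belonged to samples outside the series. 1 deposited file holds 3 stacked tables, of which the first was used. The OVX + v counts were identical in all tables, and 0 of 40 replicate pairs were identical.

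Each group was compared with OVX + v by the quasi-likelihood test of edgeR 4.0.16 (R 4.3.3), taking the total count as library size and testing genes whose counts in the fitted libraries summed to 10 or more, and all 4 groups by a test with 3 degrees of freedom. Benjamini-Hochberg adjustment was made over all tested genes (threshold 0.05). The SE is the log2 fold change over the square root of F. The pipeline was tested on simulated data. The alternatives were TMM, DESeq2 1.42.0, no filter, the default filter of edgeR, limma 3.58.1 on log2(CPM + 1) and log2(CPM + 0.1), the robust fit, all 4 groups in 1 fit, each library left out in turn and, chosen after seeing the data, OVX + E2 without replicates 13 and 14. Sequences and positions were read from GENCODE vM39 on GRCm39 with Biopython 1.88, and positions of genes from the deposited tables.

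The 10 genes and the lists were chosen with earlier results of these data known. Named were all 10 genes, the 2 genes of each list with the highest mean CPM, any gene past the threshold (none was), *Glrx*, *Msra* and *Sephs2*, chosen after their values were seen, and the closest gene by Spearman correlation to each gene with at least 50 CPM (that of *Txn1* is not reported here). *Nnt* of the NADPH list is not a row of the tables.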

Additional observations from a re-analysis of the deposited data

Results flagged for a closer look

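A library stood far from the other 4 of its group (Dixon's test, critical value 0.71 for 5 libraries) in 7 of 40 groups of 5, where chance flags about 1 in 20 groups of normally distributed values, a rate that does not hold for groups with many libraries at 0. All 7 were the highest library of a group in which at least 2 of the other 4 had no count. *Gpx7* had 48.0 CPM in replicate 9 of OVX + v, 11.3 CPM in replicate 11 of OVX + E2 and 45.8 CPM in replicate 17 of OVX + RAL. *Txnrd2* had 36.0 CPM in replicate 1 of sham + v, 10.5 CPM in replicate 10 of OVX + v and 23.7 CPM in replicate 17 of OVX + RAL. *Gsr* had 10.5 CPM in replicate 10 of OVX + v, the same library as *Txnrd2* and with the same 15 counts. The cause was not tested.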

How the results depend on the processing

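No call on the 10 genes depended on the processing: 0 of them passed the threshold in each of the 82 alternative fits, and the smallest adjusted p among the 542 alternative values of their 30 log2 fold changes was 0.481. Of these values, 495 kept the sign and 47 reversed it, all of estimates whose interval included 0. With TMM factors, *Gpx4* in sham + v was -0.037 and *Gpx3* in OVX + E2 -0.015, and the median of all genes in OVX + E2 moved from -0.06 to -0.17. With limma, *Gpx4* was -0.12 in sham + v under either pseudocount and -0.011 in OVX + RAL under either. With limma, *Txn2* in OVX + E2 was 0.049 and 0.031. Without replicates 13 and 14, *Txnrd1* in OVX + E2 was -0.55. Without 1 library at a time, the log2 fold changes that reversed ran in sham + v from -0.019 to 0.22 for *Gpx3*, -0.22 to 0.22 for *Gpx4*, -0.24 to 6.00 for *Gpx7*, -0.32 to 0.22 for *Gpx8*, -0.16 to 0.19 for *Txn1*, -0.16 to 0.85 for *Txnrd1* and -0.78 to 6.86 for *Txnrd2*. In OVX + E2 they ran from -0.10 to 0.24 for *Gpx3*, -0.20 to 0.087 for *Gpx4*, -6.88 to 3.35 for *Gpx7* and -0.29 to 0.18 for *Txn1*. In OVX + RAL they ran from -0.24 to 0.010 for *Gpx1*, -0.19 to 0.0082 for *Gpx3*, -0.11 to 0.18 for *Gpx4*, -7.13 to 5.41 for *Gpx7*, -0.058 to 0.33 for *Txn1*, -0.19 to 0.68 for *Txnrd1* and -0.19 to 6.52 for *Txnrd2*. The count of all genes past the threshold moved from 2 in sham + v to 1 with TMM, 12 with DESeq2, 0 with the default filter, 4 and 0 with limma (pseudocounts 1 and 0.1), 0 with the robust fit and 1 to 10 without 1 library. In OVX + E2 it moved from 8 to 38 with DESeq2, 1 with the default filter, 3 with limma (0.1), 4 with the robust fit and 6 to 17 without 1 library. In OVX + RAL it moved from 4 to 0 with the default filter, limma (0.1) and the robust fit, and 3 to 11 without 1 library. For any difference among the 4 groups it moved from 21 to 2 with DESeq2, 1 with the default filter, 0 and 0 with limma, 5 with the robust fit and 17 to 28 without 1 library. The cause was not tested. No paired analysis was made, because the labels give no pairing or batch. The default filter left 7 of the 10 genes in sham + v and OVX + E2 and 8 in OVX + RAL. The values that kept their sign without any 1 library ran in sham + v from 0.080 to 0.42 for *Gpx1*, 0.42 to 3.60 for *Gsr* and 0.27 to 0.85 for *Txn2*. In OVX + E2 they ran from -0.35 to -0.068 for *Gpx1*, -1.35 to -0.55 for *Gpx8*, 1.24 to 4.03 for *Gsr*, 0.078 to 0.76 for *Txn2*, 0.056 to 1.05 for *Txnrd1* and 0.25 to 5.71 for *Txnrd2*. In OVX + RAL they ran from -0.82 to -0.050 for *Gpx8*, 1.90 to 4.36 for *Gsr* and 0.35 to 0.82 for *Txn2*. A count of 0, in *Gpx7*, *Gsr* or *Txnrd2*, allows up to 1.44 to 2.67 CPM, depending on the library. The values 6.00, -6.88, 3.35, -7.13 and 5.41 of *Gpx7* and 6.86, 5.71 and 6.52 of *Txnrd2* come from fits in which a group held at most 1 count. They are no measure of size.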
